A study of Mus musculus with 4 samples.

Results

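The cell cycle machinery was examined in an ATAC-Seq comparison of Sin3B+/+ and Sin3B-/- LT-HSCs, the long-term hematopoietic stem cells at the top of blood formation. The members were 56 genes in 4 classes, namely 23 G1 regulators, 13 Rb and E2F proteins, 6 subunits of the DREAM and MuvB complexes, and 14 mitotic genes. Their peaks were the rows of the deposited table of differentially accessible peaks whose assigned gene was on this list. The rule found 20 peaks at 14 of the 56 genes, among 5332 peaks assigned to 4376 genes. The other 42 genes had no differential peak in the table, which does not tell whether they had an accessible peak that stayed the same, since unchanged peaks were not analysed here. The table also holds fewer peaks than the study describes, so a gene without a row may have had a differential peak that was not analysed here.

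ATAC-Seq uses the Tn5 transposase to cut and tag DNA that is not packed in nucleosomes, so reads accumulate where chromatin is accessible. All libraries came from C57BL/6 mice at homeostasis. The Sin3B-/- mice carried floxed Sin3B alleles that Vav1-iCre deletes in blood cells from fetal life onward, so the deletion is not specific to stem cells, and the Sin3B+/+ mice served as controls. The study also calls the controls of this experiment Sin3B F/F, so they may carry floxed alleles. Whether they carried Cre, and the age of the mice, are not given in the sources used here. LT-HSCs were sorted from cKit-enriched bone marrow as cells negative for lineage markers, Flk2 and CD48 and positive for Sca-1, cKit and CD150. There were 2 libraries of each genotype and each pooled the cells of 2 mice, for 8 mice in all.

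Cells leave quiescence when cyclin D and cyclin E kinases phosphorylate the pocket proteins Rb, p107 and p130, which otherwise hold E2F factors in a repressive state. In resting cells p130, encoded by Rbl2, joins E2F4, a DP partner and the MuvB core to form DREAM, which represses the genes of DNA replication and mitosis through E2F sites and CHR elements in their promoters. Sin3B is a scaffold that brings histone deacetylases to such repressors, and most LT-HSCs are held in quiescence.

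The table gives for each peak a level in each library, which is the number of reads in the peak multiplied by 1 factor per library. A level is not divided by the width of the peak, so each peak was compared between libraries. Where levels of sets of peaks are compared below, the widths of the peaks enter too. The summed levels were between 1657641 and 1986378 in the Sin3B+/+ libraries and between 2837467 and 3102888 in the Sin3B-/- libraries. All values of a library were whole multiples of a step within 0.006, and the steps of the Sin3B+/+ libraries, 0.228 and 0.343, were smaller than the Sin3B-/- steps of 0.625 and 1. Divided by these steps, the sums corresponded to 8705855 and 4836132 reads in Sin3B+/+ and to 4541377 and 3102888 reads in Sin3B-/-. The scaling therefore moved with the genotype. The reads in these peaks were also fewer in Sin3B-/-, although Sin3B+/+ replicate 2 and Sin3B-/- replicate 1 were close. These sums cover the peaks of the table and not the full libraries, and the part of depth and scaling in the results was not tested. The table holds no peak assigned to Sin3b itself, so the deletion could not be checked with it.

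The markers of other cells were read from the same table, which lists differential peaks alone. Of 10 LT-HSC markers, 5 had peaks, namely Fgd5, Hoxb5, Meis1, Procr and Slamf1, and the summed level of their 6 peaks was 823 to 935 in Sin3B+/+ and 1324 to 1577 in Sin3B-/-. None of 3 markers of other progenitors, 4 B cell, 3 T cell and 4 myeloid markers had a peak. Of 3 erythroid markers 1 had a peak, Klf1, with a level of 321 to 423 in Sin3B+/+ and 559 to 561 in Sin3B-/-. In pools of sorted cells, a change in the mix of cells and a change of accessibility within each cell cannot be told apart.

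The sequences of the peaks that carry the description below are shown first, from the GRCm38 genome, on the strand of the gene and from 5′ to 3′. The E2F site was searched as TTTCCCGC, TTTCGCGC, TTTGCCGC or TTTGGCGC, the CHR element, which MuvB binds through LIN54, as TTTGAA or TTCGAA, and the CCAAT box, which NF-Y binds, as CCAAT, each on both strands. No matches overlapped in the windows shown, and capitals mark every match. The 1st sequence is the window of the peak at the start of Ccng2 (chr5:93266958-93267257, plus strand), shown because it holds 3 CCAAT boxes and a CHR match. The 2nd and the 3rd are the windows at the starts of Ccna2 (chr3:36572004-36572303, minus strand), a classical target of this repression, and of Ccnc (chr4:21727557-21727856, plus strand), the promoter with the largest gain among the members.
Ccng2: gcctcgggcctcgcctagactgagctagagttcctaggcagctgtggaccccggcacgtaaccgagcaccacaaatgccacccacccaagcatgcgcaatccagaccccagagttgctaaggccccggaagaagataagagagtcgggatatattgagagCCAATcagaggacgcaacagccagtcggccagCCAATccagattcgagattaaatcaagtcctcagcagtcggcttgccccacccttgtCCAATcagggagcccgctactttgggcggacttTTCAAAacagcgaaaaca
Ccna2: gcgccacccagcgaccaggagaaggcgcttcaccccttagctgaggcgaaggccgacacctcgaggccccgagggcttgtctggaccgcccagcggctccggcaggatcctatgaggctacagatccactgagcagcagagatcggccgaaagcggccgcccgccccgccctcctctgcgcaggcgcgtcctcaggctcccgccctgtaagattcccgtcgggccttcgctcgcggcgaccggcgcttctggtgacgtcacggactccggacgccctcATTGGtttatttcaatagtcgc
Ccnc: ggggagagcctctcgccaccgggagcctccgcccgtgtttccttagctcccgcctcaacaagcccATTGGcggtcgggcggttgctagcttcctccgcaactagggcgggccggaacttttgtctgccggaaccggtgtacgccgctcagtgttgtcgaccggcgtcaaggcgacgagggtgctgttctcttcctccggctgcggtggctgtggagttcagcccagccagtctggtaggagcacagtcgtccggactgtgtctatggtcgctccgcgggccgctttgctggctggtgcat

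E2F matches occurred in 2 member peaks, outside the central window in each, and 60 bases that hold them are shown with E2F and CHR matches in capitals. The match at Cdkn2d (chr9:21291532-21291591, minus strand) began 158 bp upstream of the gene start, and the match at E2f3 (chr13:29986041-29986100, minus strand) began 11 bp upstream. In each of them a CHR match lay beside the E2F match, with 12 bases between them at Cdkn2d and 6 at E2f3. Of the 280 peaks of the table with an E2F match, 12 (4.29%) had a CHR match within 26 bases of it, and this count was chosen after the sequences were seen.
Cdkn2d: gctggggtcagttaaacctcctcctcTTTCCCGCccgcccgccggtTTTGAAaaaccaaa
E2f3: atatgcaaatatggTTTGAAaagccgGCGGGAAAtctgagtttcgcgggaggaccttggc

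The last sequence is the window of the intronic Lin54 peak (chr5:100466669-100466968, minus strand), which was chosen after its values were seen because it changed most. It held no match to any of the 3 motifs.
Lin54: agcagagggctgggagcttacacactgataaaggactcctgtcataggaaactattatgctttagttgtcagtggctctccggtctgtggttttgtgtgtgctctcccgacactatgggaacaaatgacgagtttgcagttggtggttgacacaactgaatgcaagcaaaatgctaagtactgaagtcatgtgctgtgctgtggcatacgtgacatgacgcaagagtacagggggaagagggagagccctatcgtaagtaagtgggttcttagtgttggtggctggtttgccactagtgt

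All 20 member peaks had a higher level in Sin3B-/- than in Sin3B+/+ LT-HSCs, and none was lower. The gains were small, with a median log2 fold change of 0.71 and a range of 0.48 to 2.03. In each of the 20 peaks both Sin3B-/- libraries lay above both Sin3B+/+ libraries, as they did in 95.7% of the table. The edges of the genotypes were closest at E2f2, where the lower Sin3B-/- level was 1.17 times the higher Sin3B+/+ level. With limma on log2(level + 1) and Benjamini-Hochberg adjustment over all 5332 peaks, all 20 passed an adjusted p of 0.05 as higher, with values from 7.3e-10 at Lin54 to 0.02 at a Ccnd3 peak. This test called 95.7% of the table higher and 4.29% lower. Every row had been deposited for a genotype difference, so the count says nothing about these genes in particular.

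**Figure D1:**
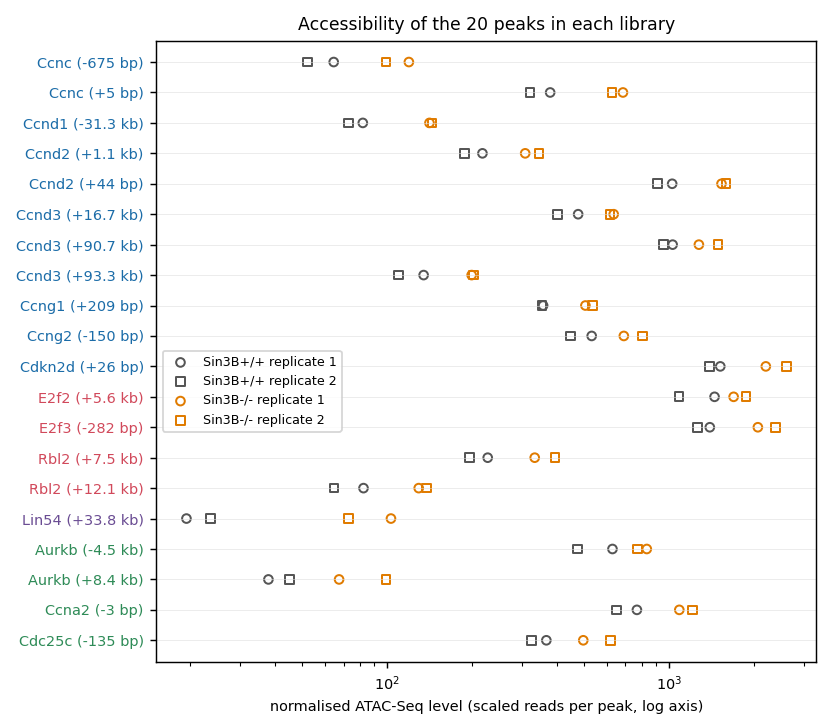
Normalised ATAC-Seq level of the 20 member peaks (rows, with the distance of the peak centre from the annotated gene start) in each library, on a log axis. Names are coloured blue for G1 regulators, red for Rb and E2F proteins, purple for the DREAM subunit and green for mitotic genes, and in all 20 rows both Sin3B-/- points lie to the right of both Sin3B+/+ points.

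The size of the gain was close to that of the table as a whole. The median log2 fold change over all peaks was 0.76, with quartiles of 0.63 and 0.97, and 13 of the 20 member peaks lay below that median. A mean Sin3B-/- level at least 2 times the Sin3B+/+ mean was found in 2 member peaks, at Lin54 and downstream of Aurkb, against 22.8% of the table, and none was at most 0.5 times the mean, against 3.28%. The member peaks had a median mean level of 478, against 263 in the table. In the table higher levels went with smaller gains, with a median log2 fold change of 0.65 above the median level and 0.92 below it. Peaks above the median level were also wider, with a median width of 842 bases, against 520 for the others. When every library was scaled to the same median, the median log2 fold change of the members was -0.05. On that scale limma called 1 member higher, the Lin54 peak, and 1 lower, a Ccnd3 peak, against 7.78% and 4.88% of the table.

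**Figure D2:**
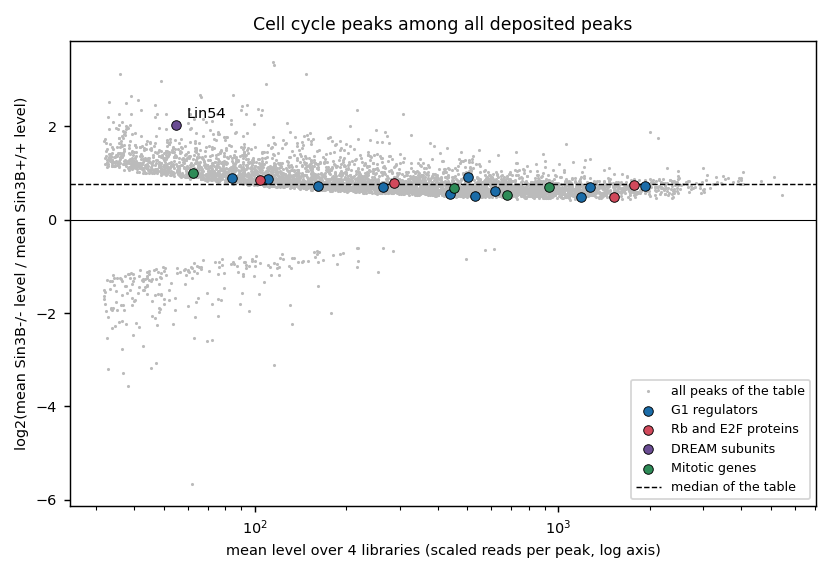
Log2 fold change of mean levels (Sin3B-/- over Sin3B+/+) against the mean level over the 4 libraries on a log axis, with the 5332 deposited peaks in grey and the 20 member peaks coloured by class. The dashed line is the median of the table at 0.76, and apart from Lin54 at 2.03 the members lie between 0.48 and 1.01.

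Among the 4 libraries, leaving out Sin3B-/- replicate 2 moved the number of calls most. Without it, limma called 4 of the 20 peaks, both Ccnc peaks and the Ccnd1 and Lin54 peaks, against 33.0% of the table called higher. Without Sin3B-/- replicate 1 it called 12, against 62.2%, and without Sin3B+/+ replicate 1 or 2 it called 20 and 18, against 95.7% and 91.8%. The direction could not turn in these settings, since both Sin3B-/- libraries lay above both Sin3B+/+ libraries in each peak. The log2 fold changes of single peaks stayed between 0.30 and 2.26 when each library was left out in turn.

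Among the G1 regulators, 7 of 23 genes had 11 peaks, with a median log2 fold change of 0.69 and a range of 0.48 to 0.91. The genes were the D-type cyclins Ccnd1, Ccnd2 and Ccnd3, which activate CDK4 and CDK6, the cyclin C gene Ccnc, the cyclin G genes Ccng1 and Ccng2, and the CDK4 and CDK6 inhibitor gene Cdkn2d. The table held no differential peak for the E-type cyclins Ccne1 and Ccne2, the kinases Cdk2, Cdk4, Cdk6 and Cdk7, the inhibitors Cdkn1a, Cdkn1b, Cdkn1c, Cdkn2a, Cdkn2b and Cdkn2c, the phosphatase Cdc25a, the ubiquitin ligase subunit Skp2, or the kinases Plk2 and Plk3. Thus the INK4 inhibitors were represented by p19INK4d alone and the CIP and KIP inhibitors, among them p57 with its known role in stem cell quiescence, by none.

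The largest gains of this class were at Ccnc (ENSMUSG00000028252), whose product pairs with CDK8 and CDK19 in the Mediator kinase module and has been tied to exit from quiescence. Its promoter peak (chr4:21727334-21728079), centred 5 bp into the gene in its UTR, had levels of 379 and 321 in Sin3B+/+ replicates 1 and 2 and of 686 and 628 in Sin3B-/- replicates 1 and 2. Both Sin3B-/- levels were at least 1.66 times the higher Sin3B+/+ level. The means were 350.0 ± 40.6 and 657 ± 41.0 (SD, n = 2), which gives a log2 fold change of 0.91. A narrower neighbour centred 675 bp upstream had Sin3B+/+ levels of 64.6 and 52.1 and Sin3B-/- levels of 119 and 99.0, a log2 fold change of 0.90. The pair of Ccnc peaks thus moved alike, and in each of them Sin3B-/- replicate 1 was the highest library.

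The D-type cyclins differed in where their peaks lay. The single Ccnd1 peak (ENSMUSG00000070348, chr7:144970896-144971569) was intergenic, 31307 bp upstream of the gene, and its levels of 81.9 and 73.0 in Sin3B+/+ rose to 141 and 144 in Sin3B-/-, a log2 fold change of 0.88. The Sin3B-/- libraries nearly coincided there. Ccnd2 (ENSMUSG00000000184), the D cyclin linked to growth factor signalling in many blood cells, had a broad peak (chr6:127151561-127152738) centred 44 bp into the gene, with Sin3B+/+ levels of 1026 and 911 and Sin3B-/- levels of 1535 and 1594. Its means were 968 ± 81.2 and 1564 ± 42.1 (SD, n = 2), which gives a log2 fold change of 0.69. The other Ccnd2 peak, 1055 bp into the gene and 78 bp from another of its transcript starts, had means of 203 and 327 and the same log2 fold change of 0.69. Both Ccnd2 peaks lie within the lncRNA gene 9330179D12Rik on the opposite strand (chr6:127149389-127212419), and unstranded accessibility cannot be given to 1 of these genes.

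Ccnd3 (ENSMUSG00000034165) had 3 peaks, all in introns, and held the smallest gain of all the members. The peaks lay 16675, 90715 and 93281 bp into the gene, and the middle one (chr17:47595382-47596151) was 302 bp from an alternative start of Ccnd3. The mean levels were 438 and 627 at the peak nearest the gene start, 994 and 1384 at the middle peak, and 122 and 201 at the farthest. The log2 fold changes in the same order were 0.52, 0.48 and 0.72, so the Ccnd3 peaks were not alike in size, although their leave-one-out ranges of 0.40 to 0.64, 0.36 to 0.59 and 0.58 to 0.87 overlapped. With the libraries scaled to equal medians, the middle peak was the member peak that limma called lower, with a log2 fold change of -0.28 and an adjusted p of 0.039.

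The cyclin G genes Ccng1, a p53 target, and Ccng2, a FoxO target that is high in arrested cells, gained less than the class median of 0.69. The Ccng1 peak (ENSMUSG00000020326, chr11:40754575-40755630), centred 209 bp into the gene in its UTR, had Sin3B+/+ levels of 357 and 354 and Sin3B-/- levels of 505 and 536, with means of 356 ± 2.04 and 520 ± 22.0 (SD, n = 2) and a log2 fold change of 0.55. The Sin3B+/+ libraries were nearly equal there. Sin3B+/+ replicate 1 was above replicate 2 in 18 of the 20 peaks, this one included, and in 87.7% of the table. The Ccng2 peak (ENSMUSG00000029385, chr5:93266868-93267347), centred 150 bp upstream of the gene, had Sin3B+/+ levels of 531 and 447 and Sin3B-/- levels of 691 and 805, a log2 fold change of 0.61. Its CHR match shown above began 17 bp upstream of the gene start.

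The Cdkn2d peak (ENSMUSG00000096472, chr9:21290958-21291805), centred 26 bp into the gene, was the only member peak at an INK4 gene. Its Sin3B+/+ levels were 1520 and 1392 and its Sin3B-/- levels 2204 and 2608, with means of 1456 ± 90.5 and 2406 ± 285 (SD, n = 2) and a log2 fold change of 0.73. The Sin3B-/- libraries differed from each other by more than the Sin3B+/+ libraries did, and both were at least 1.45 times the higher Sin3B+/+ level.

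Of the Rb and E2F proteins, 3 of 13 genes had 4 peaks, with a median log2 fold change of 0.76 and a range of 0.49 to 0.86. These were Rbl2, which encodes the pocket protein p130 of DREAM, and E2f2 and E2f3, which encode activating E2F factors. The table held none for Rb1 and Rbl1, for the activator E2f1, for the repressive or atypical factors E2f4, E2f5, E2f6, E2f7 and E2f8, or for the dimerization partners Tfdp1 and Tfdp2. Of the genes that encode the E2F4, p130 and DP part of DREAM, Rbl2 was therefore the one with peaks.

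The 2 Rbl2 peaks (ENSMUSG00000031666) lay in introns, away from the promoter. The nearer one (chr8:91077276-91077874), 7518 bp into the gene, had Sin3B+/+ levels of 227 and 196 and Sin3B-/- levels of 334 and 394, with means of 211 ± 22.3 and 364 ± 42.7 (SD, n = 2) and a log2 fold change of 0.78. The farther one (chr8:91082016-91082330), 12116 bp into the gene, had Sin3B+/+ levels of 82.4 and 64.8 and Sin3B-/- levels of 129 and 138, a log2 fold change of 0.86. In each of them Sin3B-/- replicate 2 was the highest library and Sin3B+/+ replicate 2 the lowest, without overlap.

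The E2f3 peak (ENSMUSG00000016477, chr13:29985915-29986775) was centred 282 bp upstream of the gene and reached over the start, where the E2F match shown above lies. Its Sin3B+/+ levels were 1395 and 1263 and its Sin3B-/- levels 2066 and 2386, with means of 1329 ± 93.3 and 2226 ± 227 (SD, n = 2) and a log2 fold change of 0.74. Both Sin3B-/- levels were at least 1.48 times the higher Sin3B+/+ level. The E2f2 peak (ENSMUSG00000018983, chr4:136177335-136178555), 5551 bp into the gene in an intron, had means of 1268 ± 257 and 1785 ± 128 (SD, n = 2). Its log2 fold change of 0.49 moved between 0.30 and 0.72 as each library was left out, and its Sin3B+/+ replicate 1 was the nearest of any Sin3B+/+ library to the Sin3B-/- levels.

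**Figure D3:**
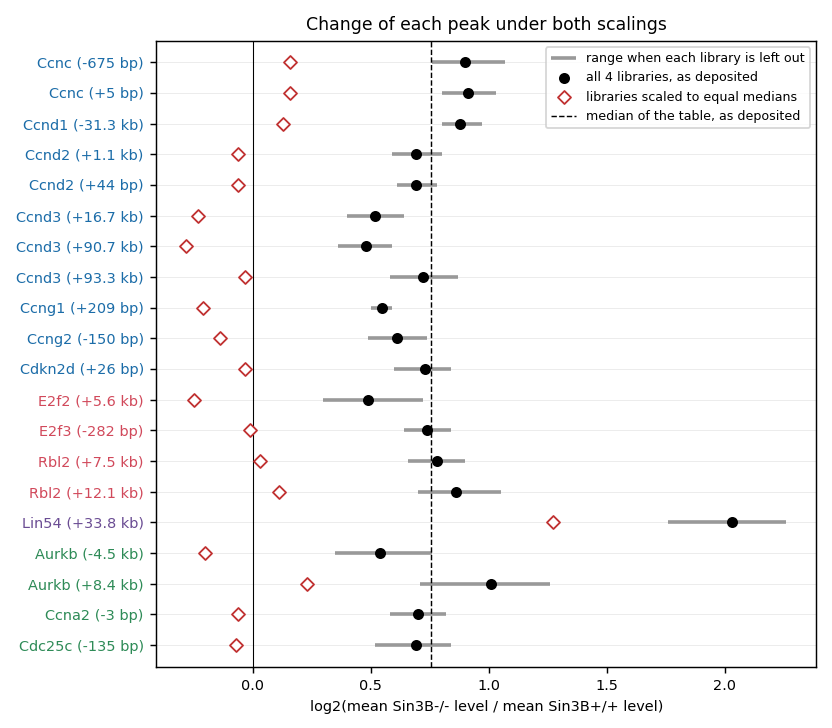
Log2 fold change of mean levels of each member peak with the libraries as deposited (black points), its range when each library is left out in turn (grey bars), and the value after the libraries were scaled to equal medians (open red diamonds). The dashed line is the median of the table as deposited, and on the equal-median scale 13 of the 20 diamonds lie below 0.

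Of the 6 DREAM subunits and partners, Lin54 alone had a peak, and it was the member peak with the largest change. LIN54 is the MuvB subunit that binds the CHR element. The peak (chr5:100466575-100467061, in ENSMUSG00000035310) lay in an intron, 33821 bp into the gene. Its Sin3B+/+ levels were 19.4 and 23.6 and its Sin3B-/- levels 103 and 73.0, so both Sin3B-/- libraries were at least 3.09 times the higher Sin3B+/+ level. The means were 21.5 ± 3.01 and 88.0 ± 21.3 (SD, n = 2), a 4.09-fold and 2.03 log2 difference, which ranked 47 of 5332 peaks by gain. On the limma scale the difference was 1.97 with an SE of 0.29 and an adjusted p of 7.3e-10. This p-value is descriptive, since the row had been deposited for a genotype difference in these same libraries. The SE comes from a spread shared by peaks of like level, not from this peak alone.

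The Lin54 peak was also the member peak with the fewest reads over the 4 libraries. Divided by the steps, its levels came to 85 and 69 reads in Sin3B+/+ and 165 and 73 reads in Sin3B-/-. The exact 95% Poisson intervals of its levels, which cover counting error only, were 15.5 to 24.0 and 18.4 to 29.9 in Sin3B+/+ and 88.0 to 120 and 57.2 to 91.8 in Sin3B-/-. They did not overlap between the genotypes, but the same held for every other member peak. Every row had also been deposited for a genotype difference, so this does not set Lin54 apart. Before scaling, Sin3B+/+ replicate 1 had the most reads in 19 of the 20 peaks and Sin3B-/- replicate 2 the fewest in 19, and Lin54 was the exception each time. With the libraries scaled to equal medians its log2 fold change was 1.27, and limma's adjusted p was 9.2e-05, which is descriptive for the same reasons. The table held no peak for the MuvB subunits Lin9, Lin37 and Lin52, nor for Mybl2 and Foxm1, whose products replace the pocket protein on MuvB when mitotic genes are switched on.

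Of the mitotic genes, 3 of 14 had 4 peaks, with a median log2 fold change of 0.69 and a range of 0.54 to 1.01. They were Ccna2, the cyclin of S phase and mitotic entry, Cdc25c, the phosphatase that activates CDK1, and Aurkb, the kinase of the chromosomal passenger complex. The table held none for Ccnb1, Ccnb2, Cdk1, Cdc25b, Wee1, Plk1, Aurka, Bub1, Mki67, Cdc20 or Fzr1.

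The Ccna2 peak (ENSMUSG00000027715, chr3:36571842-36572465) was centred 3 bp upstream of the gene start. Its Sin3B+/+ levels were 769 and 651 and its Sin3B-/- levels 1087 and 1213, with means of 710.0 ± 83.2 and 1150.0 ± 89.0 (SD, n = 2) and a log2 fold change of 0.70. The Cdc25c peak (ENSMUSG00000044201), centred 135 bp upstream, had Sin3B+/+ levels of 367 and 326 and Sin3B-/- levels of 496 and 619, with means of 346 ± 29.2 and 558 ± 86.9 (SD, n = 2) and a log2 fold change of 0.69. Both promoters thus gained by nearly the same factor, without overlap between the genotypes and close to the table's median. The sequence of the Cdc25c peak is not shown, but its central window held 1 CHR match and 4 CCAAT matches.

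The peaks assigned to Aurkb (ENSMUSG00000020897) were not at its promoter. The downstream one (chr11:69053851-69054261) was 8409 bp past the gene start and 5661 bp from that of Borcs6, which is the nearest gene start. It had Sin3B+/+ levels of 37.9 and 44.9 and Sin3B-/- levels of 67.5 and 99.0, with means of 41.4 ± 4.96 and 83.2 ± 22.3 (SD, n = 2) and a log2 fold change of 1.01. Its leave-one-out range was 0.71 to 1.26, the widest of the 20. The upstream one (chr11:69040860-69041430), 4502 bp before the gene, contained 2 RefSeq tRNA genes, n-TDgtc9 (chr11:69040984-69041055) and n-TGtcc6 (chr11:69041278-69041349). Its means were 551 ± 111 and 802 ± 44.2 (SD, n = 2), which gives a log2 fold change of 0.54. Neither peak can be assigned to Aurkb from its position alone.

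Position was not used by the rule. Of the 20 member peaks, 9 (45.0%) were centred within 1000 bp of the annotated start of their gene, against 35.0% of the table. They were the peaks of Ccnc, Ccng1, Ccng2, Cdkn2d, E2f3, Ccna2 and Cdc25c and the broad Ccnd2 peak, with 2 at Ccnc. From 1000 bp upstream to 100 bp downstream the shares were 40.0% and 20.9%. Of the other member peaks most were intronic, with 8 of 11 in introns, against 58.3% of the table's peaks away from a start. Leaving aside the tRNA genes in the upstream Aurkb peak, the start nearest to the peak was the member's own in 19 of the 20. The downstream Aurkb peak was the exception.

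Near gene starts the members ranged from 0.55 to 0.91 with a median log2 fold change of 0.70, against 0.66 in the table's 1868 peaks near a start. Away from starts the 11 members had a median of 0.72 and a range of 0.48 to 2.03, against 0.84 in the table's 3464 peaks. None of the 9 members near a start changed by 2-fold or more in either direction, against 7.92% of such peaks in the table, and 18.2% of the members away from a start did, against 35.9%. These shares rest on few peaks and were not tested.

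**Figure D4:**
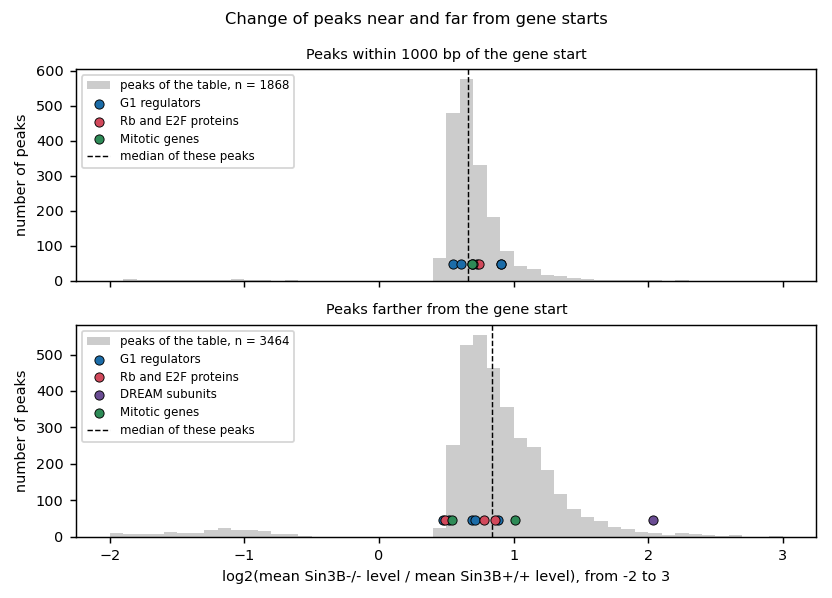
Numbers of deposited peaks (grey) by log2 fold change of mean levels, shown from -2 to 3, for 1868 peaks within 1000 bp of their gene's start (top) and 3464 peaks farther away (bottom). Coloured points are the 9 and 11 member peaks at their fold changes, their height has no meaning, and the dashed lines are the medians of the grey peaks at 0.66 and 0.84.

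The motifs of cell cycle repression were counted in the 300 bases around each peak centre. None of the 20 member windows held an E2F match, against 1.95% of the table's windows and 3.75% of those near a start. Over whole peaks 2 members held one, Cdkn2d and E2f3, against 5.25% of the table. A CHR match lay in 6 member windows (30.0%), against 14.7% of the table, and over whole peaks in 45.0% and 34.6%. The windows with a CHR match were at Ccng2, Cdc25c, the intronic Ccnd2 peak, the nearer Rbl2 peak and both Aurkb peaks, so 4 of the 6 were over 1000 bp from the annotated gene start, although the Ccnd2 peak was 78 bp from another start of that gene. A CCAAT match lay in 8 member windows (40.0%) and in 35.5% of the table's, and among windows near a start in 66.7% and 46.3%. A match describes letters and not binding, and its absence says only that these letters are not in this window.

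Other parts of the cell cycle machinery were read from lists of 84 further genes. In all, 18 of these genes had 1 peak each, and all 18 were higher in Sin3B-/-, as were 5103 of the table's 5332 peaks. Their median log2 fold change was 0.64, against 0.76 in the table. Of 28 other cyclins and CDKs 7 had a peak, namely Ccnf, Cdk9, Cdk14, Cdk17, Cdk19, Cdk20 and Cks1b, with a median of 0.64. The largest was at Cdk17, 17342 bp upstream of the gene, with Sin3B+/+ levels of 1030 and 899 and Sin3B-/- levels of 1570 and 1716, a log2 fold change of 0.77. It was followed by Cdk14, with a log2 fold change of 0.75 at its start. Cdk19, the partner of cyclin C in Mediator, had a peak within the gene with a log2 fold change of 0.64.

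Of 22 genes of the APC/C and SCF ubiquitin ligases, which degrade cyclins and their inhibitors, 3 had a peak, with a median of 0.53. They were the ring subunit gene Rbx1, with a log2 fold change of 0.57, the scaffold gene Anapc4, with 0.53, and the ubiquitin-conjugating enzyme gene Ube2s. Of 27 genes of the spindle and chromosome segregation 7 had a peak, namely Bub3, Cenpa, Cenpf, Incenp, Kif23, Mad1l1 and Mad2l1, with a median of 0.65. The checkpoint gene Mad1l1 had the largest, in the gene body, with a log2 fold change of 0.87. Cenpa, which encodes the histone variant of centromeres, had Sin3B+/+ levels of 445 and 372 and Sin3B-/- levels of 677 and 799 at its start, a log2 fold change of 0.85.

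Among 7 further genes of DREAM and its partners, namely Rbbp4, Dyrk1a, Myb, Mybl1, Sin3b, Hdac1 and Hdac2, Dyrk1a alone had a peak. DYRK1A is the kinase that phosphorylates LIN52 and so promotes assembly of DREAM. The peak (chr16:94698165-94699374) lay 128759 bp into the gene, with Sin3B+/+ levels of 164 and 95.3 and Sin3B-/- levels of 301 and 382. The groups did not overlap, although the ratio between the Sin3B+/+ libraries was larger than at any member peak, and the log2 fold change was 1.40. Of all the cell cycle genes on these lists, the largest gains were thus at intragenic peaks of Lin54 and Dyrk1a. Each of these peaks had a mean level below the table's median of 263. Of the table's peaks at or below that level 47.1% changed by at least 2-fold, against 5.06% above it. Whether either peak acts on the gene it lies in was not tested.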

How the data were processed

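LT-HSC chromatin was profiled by ATAC-Seq with an ActiveMotif kit, and libraries were amplified for 12 PCR cycles. According to the submitters' notes and the methods, the authors used FastQC, Trimmomatic, Bowtie2, sambamba, deepTools, MACS2, DiffBind, DESeq2 and HOMER, with no versions given. The table used here holds peaks past their FDR threshold of 0.05, fewer than the study describes. The deposited values per library are a normalised signal, the reads of a peak times a factor. The table also holds the authors' log2 concentrations and fold, p-value and FDR, which were not used. The number of peaks the authors tested and the full library depths are not given in the table.

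Genotypes came from the sample titles. The notes name mm9, but 96.6% of the table's gene positions were identical to GENCODE M21, so GRCm38 was used. Fold changes are ratios of mean levels, and SD is over 2 libraries. Genotypes were compared with limma 3.58.1 (R 4.3.3) on log2(level + 1) with a mean-variance trend and genotype as the only term. limma found no variation of the spread between peaks beyond the trend, so peaks of like level share 1 spread. Since only peaks with a difference were deposited, these p-values are descriptive. An exact permutation test with 2 libraries per genotype cannot go below 0.33. Replicates were separate pools of mice, and same-numbered libraries came from different mice. On simulated data for the genotype comparison over 5332 peaks, limma recovered 92.2% of changes of 1 log2 unit and 100% of 2, and called 0.253% of the others. The simulation gave every peak the same independent noise and left most peaks unchanged, unlike the table. Changes below 1 log2 unit were not simulated, so these rates need not hold for the member peaks.

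All members with a peak were named. Values per library are given for peaks within 1000 bp of the gene start and for the 3 largest changes of each class. Of the other lists, log2 fold changes are given for the 2 largest per list, with values per library for only some of them. The members and lists were chosen with earlier results of these data known. Cdk19 was named beyond this rule because its product is the partner of cyclin C. The alternatives were a replicate block, pseudocounts of 0.5 and 10, peaks above the median level, libraries scaled to equal medians, each library left out, genes by nearest start, and other windows. Motifs were searched with Python 3.11.15 and pysam 0.24.0.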

Additional observations from a re-analysis of the deposited data

How the results depend on the processing

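The number of member peaks that limma called higher in Sin3B-/-, 20 as deposited, was the same with pseudocounts of 0.5 and 10 and with genes assigned by the nearest start, and all 14 members above the median level were called. It was 4 to 20 as each library was left out, lowest without Sin3B-/- replicate 2, and a lone library was then assumed to vary like the other genotype. With libraries scaled to equal medians 1 was called higher and 1 lower. The replicate numbers do not pair mice, and the deviations of same-numbered libraries had a correlation of -0.101. With the replicate number as a block 12 were called, against 71.9% of the table, and with the numbers crossed, an alternative chosen after seeing the data, 20. The cause of these differences was not tested.

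The count of at least 2-fold changes, 2 as deposited, was 1 with equal medians, 0 among peaks above the median level, 1 with genes by nearest start, and 2 to 4 as each library was left out. The median log2 fold change of 0.71 turned to -0.05 with equal medians, was 0.61 to 0.81 as each library was left out and was 0.70 without the Lin54 peak, a setting chosen after seeing the data. With equal medians, 13 peaks turned negative, at Aurkb upstream (-0.20), Ccna2 (-0.06), Ccnd2 (-0.06 and -0.06), Ccnd3 (-0.23, -0.28 and -0.03), Ccng1 (-0.21), Ccng2 (-0.14), Cdc25c (-0.07), Cdkn2d (-0.03), E2f2 (-0.25) and E2f3 (-0.01). This scaling removes the table's own median shift of 0.76. Member windows with an E2F match, 0 at 300 bases, were 2 over whole peaks, and those with a CCAAT match, 8, were 13 over whole peaks and 4 in 200 bases, as longer windows hold more letters.

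The planned edgeR test on whole reads was not run, because the lowest peaks of the table hold too many reads for the check of recovered reads set for it. Member peaks held 69 to 6660 reads by the steps, so a Poisson interval limits the lowest of them most.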

Other observations

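A further peak may belong to Ccng2, which the table assigns to the gene 2010109A12Rik. It lay 27160 bp upstream of the nearest annotated start, that of Ccng2 (chr5:93239694-93240501). Its Sin3B+/+ levels were 66.6 and 70.3 and its Sin3B-/- levels 103 and 148, with means of 68.4 ± 2.58 and 126 ± 31.8 (SD, n = 2) and a log2 fold change of 0.88, against 0.61 at the Ccng2 promoter.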
